A study of Homo sapiens with 41 samples.

Results

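Elongin A is the large subunit of the Elongin complex, which in vitro raises the rate at which RNA polymerase II (RNAPII) transcribes and, in another assembly, takes part in ubiquitylation of stalled RNAPII. The regions described here are the places where Elongin A was detected inside exons of protein-coding genes, away from transcription start sites (TSSs) and transcript ends. Exons are the segments kept in the mature RNA. They include coding sequence, the untranslated regions (UTRs) on either side of it, and segments used only by alternative transcripts, such as introns that some transcripts retain. RNAPII crosses exons and introns alike, and a region bound in the body of a gene may lie in either.

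Elongin A was mapped in DLD1 cells, a line from a human colon cancer, by CUT&RUN, in which an antibody directs a nuclease to cut DNA near the bound protein. The cells were fixed with formaldehyde, were not transfected with siRNA and carried no other treatment. A goat antibody was used in 2 libraries with 1 goat IgG control, a mouse antibody in 1 library, with 1 mouse IgG library made beside it, and chromatin immunoprecipitation (ChIP-seq) in 1 Elongin A library with 1 input control. Each of these 3 experiments is held as 1 list of peaks with no value per library, so no spread between libraries can be given, and the lists hold no read totals, so the depth is unknown. Intervals given below are 95% intervals and cover counting error only.

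A peak of the goat antibody list was taken as exonic when its summit, the base of highest signal, lay in an exon of a protein-coding gene, over 1 kb from every protein-coding or lncRNA TSS and outside the window from 100 bp upstream to 1000 bp downstream of every protein-coding transcript end. By this rule 319 of 8720 peaks were exonic gene body peaks, or 3.66% (3.28 to 4.07). The starts and ends were those of transcripts that are themselves annotated as protein-coding or lncRNA. When the starts and ends of every transcript of coding and lncRNA genes were used, retained introns included, 168 of these peaks were left. This narrower reading came first, and the set of 319 was adopted after values under it had been seen. Values for the 168 peaks are given beside the results that they change. For comparison, the list also held 1065 in first introns and 2293 in later introns under the same distance limits, and 1930 within 1 kb of a protein-coding TSS.

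The 19 exonic peaks with a summit over 1000 and up to 1200 bp from a TSS had a median fold enrichment of 4.54 (3.47 to 10.5), and the 21 summits in exons over 800 and up to 1000 bp away, which the limit left out, 4.99 (3.04 to 7.46), where the values in parentheses are the lowest and highest. Just inside it lay summits in ZNF276 and ARHGDIA, both 1014 bp from a TSS with fold enrichments of 4.11 and 4.54, and in HNRNPC at 1040 bp with 10.5. Just outside lay SEC14L2 at 992 bp with 3.92, MYL6 at 986 bp with 5.14 and RPS27A at 983 bp with 4.1.

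The sequence under the summits shows what kind of exon the peaks lay in. The first set holds the exonic peaks with the highest fold enrichment among those with the summit in coding sequence, a 32 bp summit sequence found once in the genome and an overlapping mouse antibody peak, leaving out windows that touch a UTR. Each line gives 150 bp centred on the summit, 5′ to 3′ on the strand of the gene, on hg19 (GRCh37), with the letters of the canonical transcript's exons in capitals and introns in lower case. DST, which encodes the cytoskeletal linker dystonin, is shown at chr6:56417325-56417474 on the minus strand. PRR36, a gene for a proline-rich protein, is shown at chr19:7936793-7936942 on the minus strand. TGIF1, a homeobox repressor of TGFβ-responsive genes, is shown at chr18:3456395-3456544 on the plus strand. ATG14, a subunit of the lipid kinase complex that starts autophagosomes, is shown at chr14:55852521-55852670 on the minus strand. NPEPPS, the puromycin-sensitive aminopeptidase, is shown at chr17:45699131-45699280 on the plus strand.
DST: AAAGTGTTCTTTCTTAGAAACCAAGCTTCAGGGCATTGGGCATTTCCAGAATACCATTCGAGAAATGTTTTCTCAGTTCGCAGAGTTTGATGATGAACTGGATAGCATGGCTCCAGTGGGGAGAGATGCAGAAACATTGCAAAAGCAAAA
PRR36: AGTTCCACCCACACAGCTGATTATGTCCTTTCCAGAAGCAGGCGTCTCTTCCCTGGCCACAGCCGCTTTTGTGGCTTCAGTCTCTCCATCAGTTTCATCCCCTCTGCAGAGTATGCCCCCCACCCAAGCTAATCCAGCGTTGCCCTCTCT
TGIF1: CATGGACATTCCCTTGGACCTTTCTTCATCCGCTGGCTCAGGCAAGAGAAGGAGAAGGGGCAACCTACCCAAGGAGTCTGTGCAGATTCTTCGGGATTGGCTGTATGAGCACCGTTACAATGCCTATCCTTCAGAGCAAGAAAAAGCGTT
ATG14: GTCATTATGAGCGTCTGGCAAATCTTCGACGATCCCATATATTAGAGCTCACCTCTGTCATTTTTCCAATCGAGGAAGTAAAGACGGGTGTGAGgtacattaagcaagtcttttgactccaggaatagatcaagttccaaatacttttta
NPEPPS: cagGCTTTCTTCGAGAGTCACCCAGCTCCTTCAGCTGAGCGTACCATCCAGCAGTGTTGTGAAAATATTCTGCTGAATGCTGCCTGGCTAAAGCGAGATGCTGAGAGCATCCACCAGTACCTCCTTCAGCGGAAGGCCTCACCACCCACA

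The windows of DST, PRR36 and TGIF1 lay wholly in exons, with all 150 bases in capitals. In TGIF1 the mouse antibody peak, at chr18:3456729-3457032, met only the edge of the goat antibody peak. It reached neither the summit nor the printed window. In DST the summit fell in exon 61 of 104, a long exon of 1472 bp, and in PRR36 in exon 6 of 7, which spans 3042 bp. The ATG14 window held 94 exon bases of exon 5 and ran over the 5′ splice site into the intron. The NPEPPS window began 3 bases before exon 23, the last of the gene.

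The second set was chosen after the values were seen, to show coding summits without an overlapping mouse antibody peak, and summits in exons that the canonical transcript lacks. EEF2 (elongation factor 2, which moves the ribosome along the mRNA) is shown at chr19:3979260-3979409, minus strand, with 83 bases of exon 11 of 15. SLC7A11 (the cystine and glutamate exchanger) is shown at chr4:139157471-139157620, minus strand, with the whole of the 127 bp exon 2 of 12. The EEF2 summit was the highest in coding sequence, whereas that of SLC7A11, at 6.55, ranked below those of ZNF169 (7.55), ETS2 (6.99) and NAXE (6.87), which are not shown. DNM2 (the endocytic GTPase dynamin 2) is shown at chr19:10919839-10919988, plus strand, and HNRNPA2B1 (an abundant nuclear RNA-binding protein) at chr7:26237999-26238148, minus strand. In DNM2 and HNRNPA2B1 the summit lay in a transcript that retains an intron, so no letter is in capitals. The peaks of EEF2 and DNM2 were not among the 168 of the narrower reading.
EEF2: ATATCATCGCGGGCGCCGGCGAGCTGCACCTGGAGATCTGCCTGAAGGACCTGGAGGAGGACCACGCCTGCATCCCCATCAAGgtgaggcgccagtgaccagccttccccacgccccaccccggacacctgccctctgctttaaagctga
SLC7A11: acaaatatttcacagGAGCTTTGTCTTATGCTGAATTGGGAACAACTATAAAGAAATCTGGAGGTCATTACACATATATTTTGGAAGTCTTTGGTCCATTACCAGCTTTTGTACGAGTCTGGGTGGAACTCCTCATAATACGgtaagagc
DNM2: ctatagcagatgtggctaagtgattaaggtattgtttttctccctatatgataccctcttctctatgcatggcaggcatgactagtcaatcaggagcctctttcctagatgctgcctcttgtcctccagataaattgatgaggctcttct
HNRNPA2B1: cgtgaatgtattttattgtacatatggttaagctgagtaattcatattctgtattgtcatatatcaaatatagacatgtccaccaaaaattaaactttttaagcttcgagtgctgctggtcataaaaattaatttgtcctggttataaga

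The windows differed widely in base composition. EEF2 held 64.7% G and C with 9 CG dinucleotides, SLC7A11 38.7% with 2, and HNRNPA2B1 29.3% with 2. The DNM2 window held no CG dinucleotide.

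Most exonic summits lay in noncoding parts of exons, which also make up most of the eligible exonic sequence. That sequence held 24.4 Mb of coding sequence, 25.3 Mb of 3′ UTRs and 1.10 Mb of 5′ UTRs. Exons used only by transcripts with no defined coding role made up 20.2 Mb. Of the 319 summits, 70 (21.9%, 17.8 to 26.8) were in coding sequence, 115 (36.1%) in a 3′ UTR, 7 in a 5′ UTR, and 127 (39.8%) in exons used only by transcripts with no defined coding role. Of these 127, 79 lay in a retained intron, 43 in a transcript of a coding gene whose coding sequence is not defined, and 8 in a transcript subject to nonsense-mediated decay, some in more than 1 type. Against the Ensembl canonical transcript of the host gene, 109 summits were in the last exon, 55 in an internal exon, 4 in the exon of a gene with 1 exon, 0 in a first exon and 151 in none of its exons. That no summit lay in a canonical first exon follows in part from the distance limit of the rule.

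Internal and last exons differed in length, while the peaks over them were of similar width. The 55 summits in internal exons lay in exons with a median length of 153 bp (66 to 7418) under peaks with a median width of 404 bp, and 44 of these peaks were wider than the exon. Their summits fell at a median of 49.0% along the exon (quartiles 26.9 and 74.2%) and 41 bp from its nearer edge. The rule requires a summit inside an exon, so these distances are bounded by the exon's length and show no preference. The 109 summits in last exons lay in exons with a median of 3541 bp under peaks of 445 bp, of which 11 were wider than the exon. Along the canonical transcript, exonic summits lay at a median of 75.5% of its span (71.9 to 80.1) and 12.3 kb from its start, with 84 of 319 before 50%. Summits outside that transcript were included, so positions ran from -73.5 to 392%. Where the eligible exonic sequence lies was not measured, and the rule leaves out sequence near TSSs, so these positions do not show a preference.

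Since exons fill a small part of a gene, counts were set against the sequence in which a summit could have fallen, that is, gene body bases outside the excluded windows. Exonic sequence carried 4.49 peaks per Mb (4.01 to 5.01) over 71 Mb and intronic sequence 2.98 per Mb (2.88 to 3.08), so exons held 1.51 times as many per Mb (1.34 to 1.69). Exonic peaks were 8.68% (7.81 to 9.63) of 3677 gene body peaks, and exons 5.92% of the bases. In the narrower reading the ratio was 1.19 (1.01 to 1.39). With exons of basic protein-coding transcripts alone it was 1.24 (1.06 to 1.44), on 186 peaks.

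The higher density was not shared by all parts of exons. Coding sequence carried 2.87 peaks per Mb (2.24 to 3.63), which did not differ from introns beyond counting error. The 3′ UTRs carried 4.54 per Mb (3.75 to 5.45), and exons of transcripts with no defined coding role 6.27 per Mb (5.23 to 7.46). In the narrower reading the 3 values were 2.27, 4.19 and 3.67 per Mb, beside 2.89 in introns. For 5′ UTRs the value was 6.38 per Mb, with a wide interval of 2.56 to 13.1 from 7 peaks. First introns, at 4.44 per Mb (4.18 to 4.71), were as dense as exons of all parts combined, and later introns were at 2.58 per Mb (2.48 to 2.69). In 5 classes of exon length the densities ran from 3.12 per Mb (2.02 to 4.60) to 5.15 per Mb (4.16 to 6.31), with intervals that overlap.

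Genes with a goat antibody summit within 1 kb of one of their coding TSSs carried more exonic peaks per Mb. Of all 20163 protein-coding genes, 10% had such a TSS peak. Exons at which a coding gene had a TSS peak carried 14.4 exonic peaks per Mb (11.9 to 17.4), and other exons 3.27 (2.84 to 3.75). The ratio of exons to introns was 1.94 (1.57 to 2.37) in genes with a TSS peak and 1.28 (1.11 to 1.48) in genes without. In genes with a TSS peak the order was exons without a defined coding role at 20.4 per Mb, 3′ UTRs at 13.2, first introns at 12.6, coding sequence at 9.42 and later introns at 6.12. In genes without one, coding sequence, at 2.14 per Mb (1.57 to 2.85), and later introns, at 2.24 (2.14 to 2.35), did not differ beyond counting error. In the narrower reading exons carried 7.43 peaks per Mb (5.17 to 10.3) with a TSS peak and 3.02 (2.53 to 3.58) without, and the ratio of exons to introns was 1.05 (0.728 to 1.48) in genes with a TSS peak and 1.20 (1.00 to 1.43) in genes without.

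**Figure D1:**
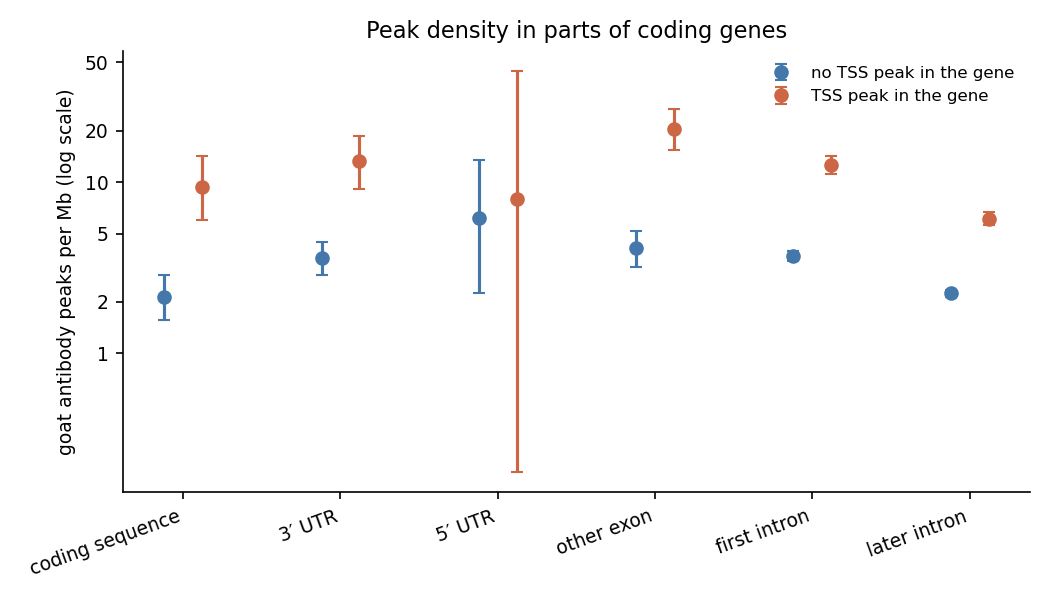
Goat antibody peaks per Mb of eligible sequence (log scale) in 4 parts of exons and in introns, for coding genes with and without a peak at a TSS. Points are densities and bars exact Poisson 95% intervals for counting error. Every part is denser in genes with a TSS peak except the 5′ UTR, where 1 and 6 peaks leave the intervals overlapping.

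A TSS peak lay in a coding gene at 112 of 319 exonic summits (35.1%, 30.1 to 40.5), against 23.5% of first intron peaks and 20.6% of later intron peaks. The differences were 11.6 percentage points (5.95 to 17.6) and 14.5 points (9.21 to 20.1). In the narrower reading the share for exonic peaks was 20.8% (15.4 to 27.6) and the difference was no longer seen, with -2.12 points (-8.20 to 5.08) from first introns and 1.52 points (-4.21 to 8.47) from later introns. Exonic peaks also lay nearer to other peaks. The nearest other summit was a median of 6567 bp away for exonic peaks and 25353 bp for intron peaks, and 32.3% of exonic peaks had another summit within 2 kb, against 17.5% of first intron and 17.1% of later intron peaks. Genes at exonic summits were also shorter, with a median length of 33.3 kb, against 111 and 148 kb for first and later introns. Among the 168 peaks of the narrower reading the nearest other summit was a median of 13412.5 bp from exonic and 26917 bp from intron peaks, 26.8% of exonic peaks had one within 2 kb against 16.9% and 15.6%, and the median gene length was 50.9 kb against 117 and 160 kb.

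The exon-to-intron ratio was also taken within levels of gene length, distance and base composition, with no test of the difference between levels. It was 1.83 (1.19 to 2.82) in genes under 10 kb, 1.35 (1.05 to 1.71) at 10 to 30 kb, 0.887 (0.705 to 1.10) at 30 to 100 kb and 1.18 (0.935 to 1.47) in longer genes. By distance from the nearest coding or lncRNA TSS, it was 1.62 (1.21 to 2.14) at 1 to 2 kb, 1.46 (1.16 to 1.83) at 2 to 5 kb, 1.12 (0.911 to 1.36) at 5 to 20 kb and 1.17 (0.887 to 1.53) beyond 20 kb. Over windows of 200 bp with under 35% G and C the ratio was 2.22 (1.66 to 2.91), and at 60 to 65% it was 0.628 (0.338 to 1.09). In windows of 35 to 55% the 4 ratios ran from 1.24 to 1.97, and at 55 to 60% the ratio was 0.765 (0.443 to 1.24). Under the narrower reading the ratios ran from 0.811 to 1.36 over gene length and from 0.996 to 1.21 over distance, each with an interval that held 1. By base composition they were 1.76 (1.19 to 2.53) under 35% and 0.378 (0.119 to 0.922) at 60 to 65%.

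**Figure D2:**
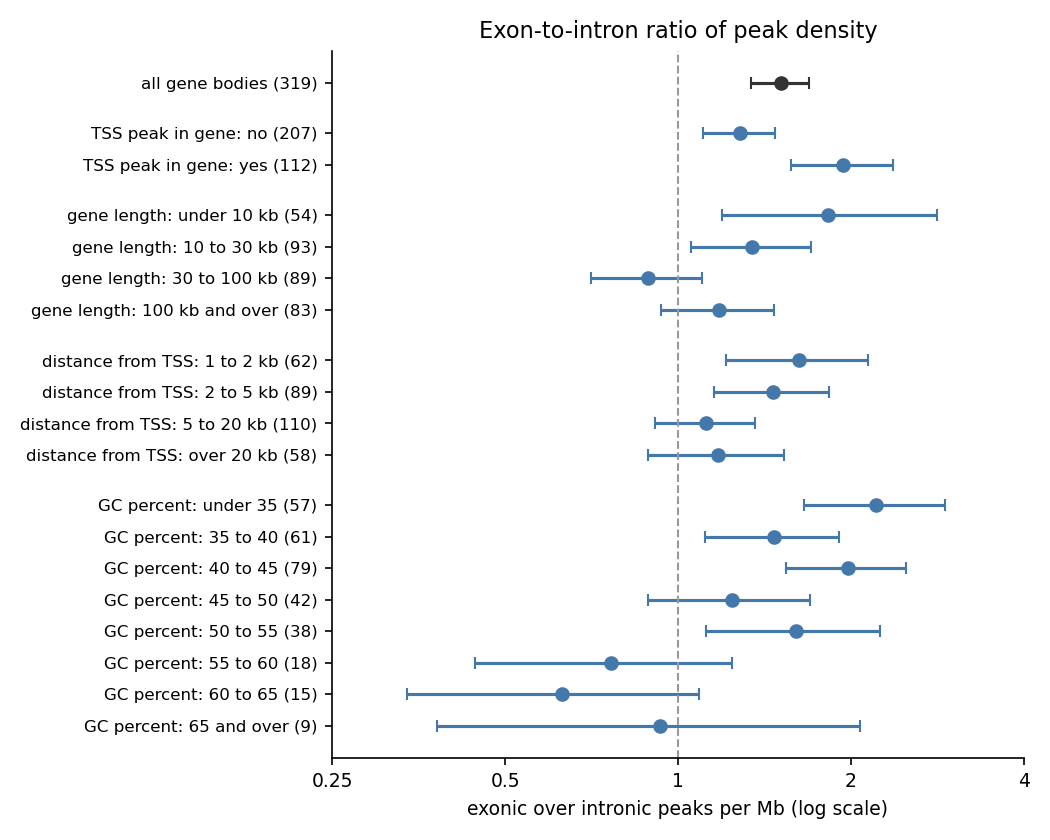
Ratio of exonic to intronic goat antibody peaks per Mb (log scale) over all gene bodies and within levels of TSS peak, gene length, distance from a TSS and GC percent of 200 bp. The number of exonic peaks is in parentheses, bars are 95% intervals for counting error, and the dashed line marks a ratio of 1. Genes of 30 to 100 kb and windows from 55% G and C lie at or below 1.

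The exonic summits had a base composition like that of intron peaks. Their median GC content over 200 bp was 42% (41 to 43.5), beside 42% for first introns and 41% for later introns. It was 54% for peaks within 1 kb of a TSS and 44% (44 to 44.5) for the whole list. Per Mb of eligible exonic sequence, exonic peaks were densest at 40 to 45% G and C, at 7.11 (5.63 to 8.86). At 55 to 60%, 60 to 65% and from 65% they stood at 2.65, 2.95 and 2.66 per Mb. In the narrower reading these 4 values were 4.66, 1.40, 1.62 and 0.480. A CpG-rich 500 bp window, with at least 55% G and C and an observed-to-expected CpG ratio of at least 0.65, was found at 5 exonic summits (1.57%), against 9.24% over all goat antibody peaks and 37.2% of TSS peaks. The exonic value exceeded that of later introns, 0.305%, by 1.26 points (0.309 to 3.32), on few peaks, and did not differ beyond counting error from that of first introns, 0.845%, with 0.722 points (-0.448 to 2.81).

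Exonic peaks were somewhat higher than other peaks of the list. Their median fold enrichment over IgG was 4.57 (4.38 to 4.75), with quartiles of 3.79 and 5.47 and a range of 2.59 to 13.7. The medians were 4.16 (4.11 to 4.22) in first introns, 4.32 (4.21 to 4.34) in later introns and 4.33 (4.24 to 4.38) near TSSs. Of the 319 exonic peaks, 200 (62.7%, 57.3 to 67.8) were above the median of all intron peaks, 4.23. A fold enrichment of at least 5 was reached by 119 (37.3%), against 30.1% of the whole list. The excess was 11.2 points (5.40 to 17.2) over first introns, 8.70 (3.23 to 14.4) over later introns and 7.20 (1.67 to 13.0) over TSS peaks. For the 168 peaks the median was 4.48 (4.32 to 4.76), and the excess was 9.31 points (1.91 to 17.2), 7.22 (0.0888 to 14.9) and 5.61 (-1.55 to 13.4) in the same order, so that a difference from TSS peaks was not seen.

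The parts of exons did not separate by height. The medians were 4.44 (4.11 to 4.79) in coding sequence, 4.66 (4.38 to 4.91) in 3′ UTRs and 4.49 (4.23 to 4.96) in exons with no defined coding role. Exonic peaks were a little wider, with a median of 401 bp (370 to 443), against 372 bp in first introns and 364 bp in later introns. A width of 1 kb or more was reached by 28 (8.78%, 6.14 to 12.4), against 3.69% (3.11 to 4.39) of intron peaks. For the 168 peaks it was 7.14% (4.13 to 12.1) against 3.46%. The intervals of 4 exonic peaks reached over a coding TSS although their summits did not. Among them were the EIF1 peak and the 6288 bp peak of HNRNPA2B1, both in genes counted as without a TSS peak.

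**Figure D3:**
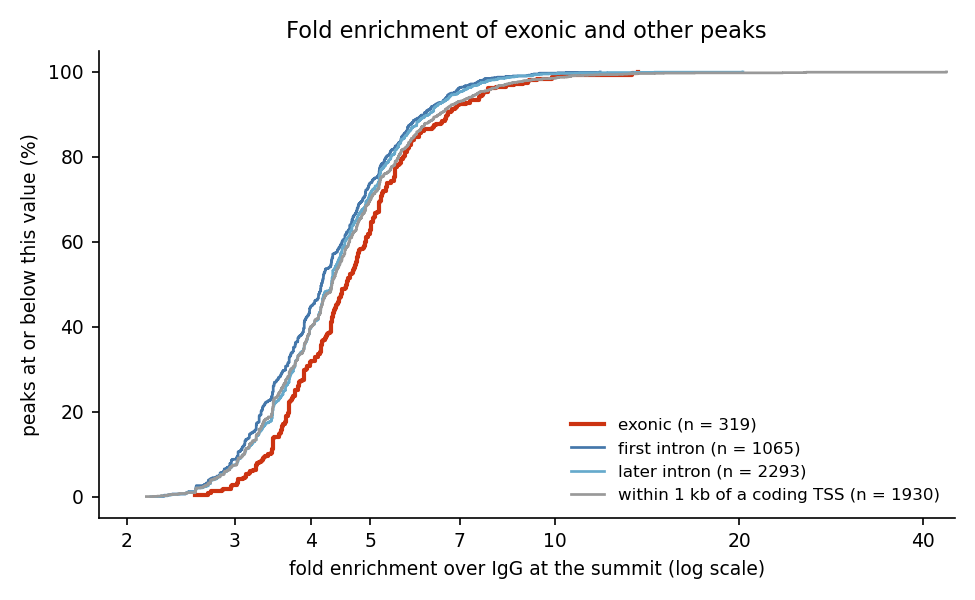
Cumulative share of peaks (%) against fold enrichment over IgG (log scale) for 319 exonic peaks, 1065 first intron peaks, 2293 later intron peaks and 1930 peaks within 1 kb of a coding TSS. The exonic curve lies to the right through the middle of the range, with a median of 4.57 against 4.16 to 4.33.

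Genes of translation were among the hosts of the 20 highest exonic peaks, of which 7 were also in the narrower reading. EIF1, a factor that helps the ribosome choose the start codon, held the highest at 13.7, with rank 22 of all 8720. Its summit lay in the last exon, but the peak of 5169 bp covered the whole gene, with its TSS and all 4 exons. EEF1A1, which brings aminoacyl-tRNA to the ribosome, had 9.89 in its last exon under a peak of 6112 bp, and EEF2 had 9.04 and 7.79 in coding exons 11 and 9. RPL27A, a protein of the large ribosomal subunit, had 7.61 in its last exon under 5390 bp. Of EIF1, EEF1A1, EEF2 and RPL27A, only EEF1A1 kept an exonic peak in the narrower reading.

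Genes of nuclear RNA-binding proteins were also among these hosts. HNRNPC, which coats nascent transcripts, had 10.5 in a 5′ UTR of an alternative transcript. HNRNPA2B1 had 8.89 and 8.59, under peaks of 6288 and 7135 bp that were the longest of the exonic peaks. CCNL1, a cyclin with a role in splicing, had 7.53 in an exon with no defined coding role.

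Other genes among the 20 highest had varied roles. TBCD, a tubulin-folding cofactor, had 9.99, EFNA1, a ligand of Eph receptors, 9.36, and DNM2 9.09, each under a peak of 247 to 290 bp. The zinc finger factor gene KLF6 had 7.77 in its 3′ UTR and GTF3A, which encodes the 5S rRNA gene factor TFIIIA, 7.67. ATP2C1, the calcium and manganese pump of the Golgi, had 7.63, and ZNF169, a zinc finger gene, 7.55 in coding exon 4 of 5. PPP1R1C, an inhibitor of protein phosphatase 1, had 8.02, but its 32 bp summit sequence occurs 6 times in the genome, so the position is uncertain.

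Some of these summits lay in more than 1 gene, and CUT&RUN does not tell strands apart. LRRC75A had the next highest value after EIF1, 13.4, with a summit in its last exon that also lay inside SNHG29, a noncoding snoRNA host gene on the opposite strand. PRSS12, a secreted serine protease gene with 7.77, overlapped SNHG8 in the same way. In all, 25 of 319 exonic summits (7.84%) lay inside a lncRNA gene, 16 (5.02%) inside a coding gene on the other strand and 7 in exons of more than 1 coding gene. These shares were not taken for other peaks. The gene to which a peak with such a summit belongs cannot be told apart.

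Exonic peaks were spread over many genes, most with 1 each. The 319 peaks lay in 276 host genes, which is 1.37% of 20163. Of these, 243 genes held 1 peak, 25 held 2, 6 held 3 and 2 held 4. The 168 peaks of the narrower reading lay in 156 genes, of which 144 held 1 and 12 held 2.

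CCNL1 held 4, with fold enrichments of 7.53, 4.49, 4.4 and 3.45, of which 1 was in coding sequence and 3 in exons without a defined coding role. HSP90AA1, the inducible cytosolic HSP90, also held 4, at 6.0, 5.49, 4.47 and 4.05. Of its summit sequences of 32 bp, 1 was found once in the genome and the others 2 or 3 times, so that reads from copies of the gene may be among them. HSPA5, the main HSP70 of the endoplasmic reticulum, held 3, at 5.16, 4.75 and 3.04, the lowest of which had 2 genomic copies. In the narrower reading CCNL1 kept no peak, HSP90AA1 only that at 4.05 and HSPA5 those at 4.75 and 3.04.

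The other genes with 3 were of different kinds. SFPQ, a splicing factor of paraspeckles, had 6.30, 5.19 and 3.04. Its peak at 6.30 lay past the end of the canonical transcript, at 136% of the span, in an exon without a defined coding role. RABGGTB, a Rab prenyltransferase subunit that also hosts snoRNAs, had 5.67, 4.56 and 4.29. RPL37, a ribosomal protein gene, had 5.49, 5.29 and 3.47, all in 3′ UTRs of its transcripts. EREG, which encodes the EGF receptor ligand epiregulin, had 5.46, 5.13 and 5.01 in its 3′ UTR and 10 further peaks in introns. PHYKPL, an enzyme of hydroxylysine breakdown, had 4.42, 4.31 and 3.90. In the narrower reading no peak of SFPQ or RABGGTB was left, and RPL37, EREG and PHYKPL lost those at 3.47, 5.01 and 4.31.

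**Figure D4:**
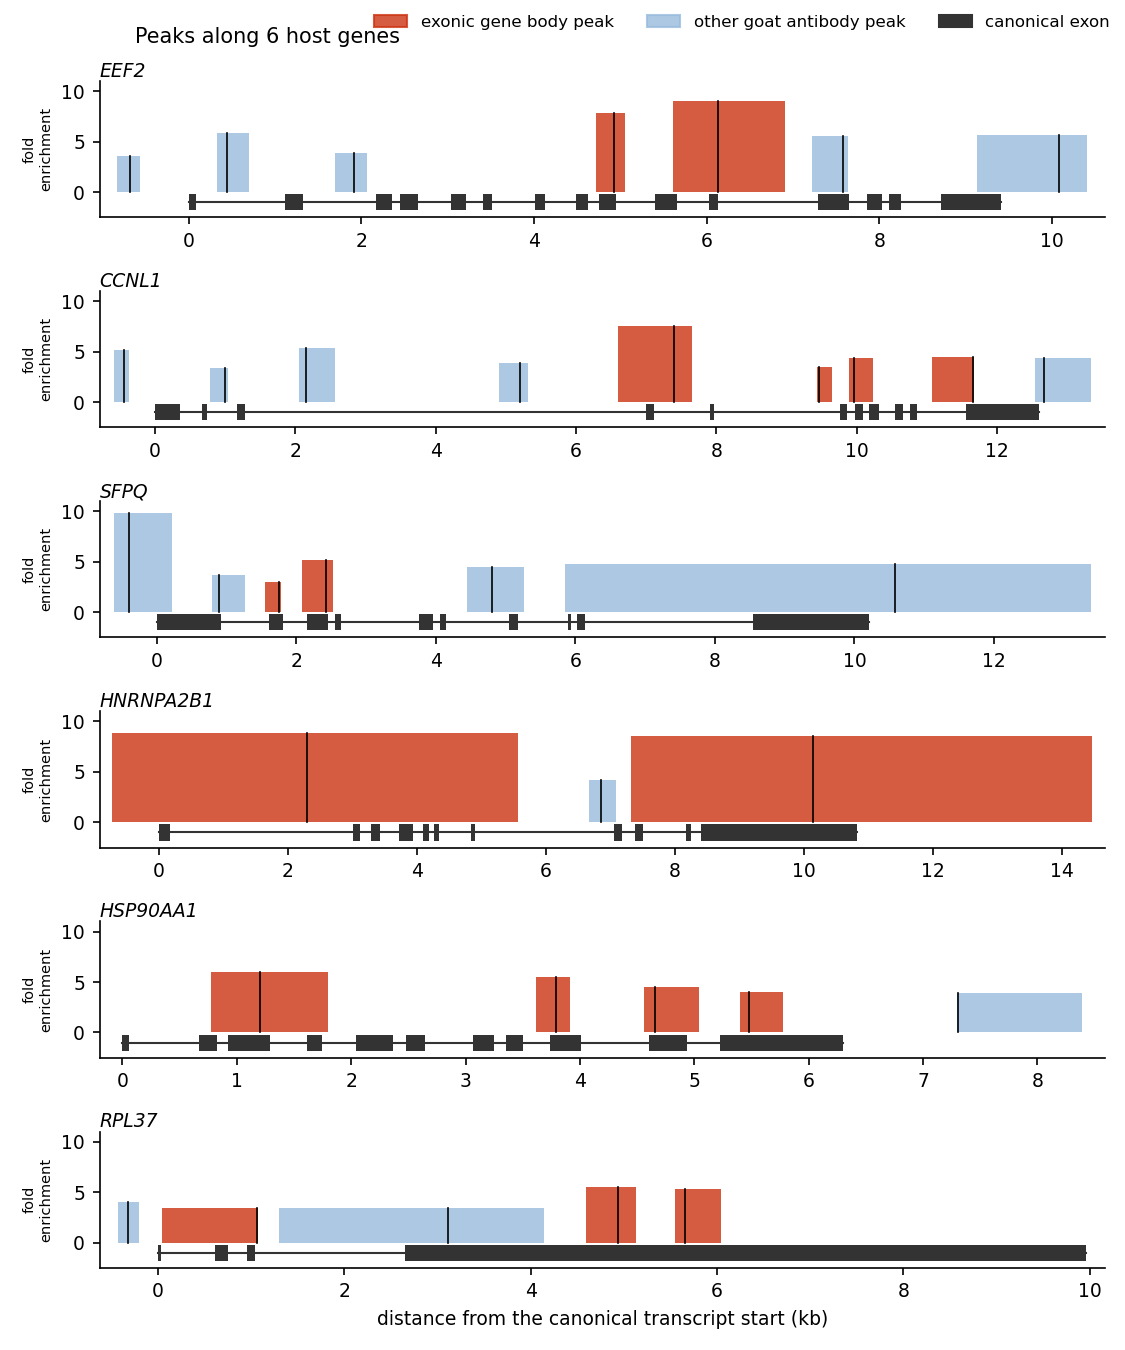
Goat antibody peaks along 6 host genes chosen after the values were seen, by distance from the start of the canonical transcript (kb), with boxes as wide as the peak and as high as its fold enrichment and a black line at the summit. Exonic gene body peaks are red, other peaks blue and canonical exons black. The SFPQ exonic peak at 6.30, past the canonical transcript end, is not drawn. In HNRNPA2B1 the exonic peak of 6288 bp touches 7 canonical exons and runs over the transcript start. Its peak of 7135 bp touches 3 and runs past the transcript end. In HSP90AA1 4 separate peaks lie over exons.

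Genes grouped by function differed in how often they held an exonic peak. Among cytosolic ribosomal protein genes, 20 of 79 did (25.3%, 17.0 to 35.9), and among SR and hnRNP splicing factor genes 11 of 39 (28.2%, 16.5 to 43.8), beside 1.37% of all protein-coding genes. Both lists also held many TSS peaks, at 57.0% and 56.4% of genes. The study's own pathway analysis of genes occupied in CUT&RUN had ribosomal proteins, mRNA processing and translation factors among its top categories. These lists are therefore not independent of the data. The share for all protein-coding genes also takes in genes whether or not they are transcribed in these cells. A summit in exons of more than 1 coding gene was credited to only 1 of them. Summits that also lay in exons of SRSF1 and SRSF9 were thus counted for other genes. Per Mb of eligible exonic sequence in their spans, the ribosomal protein genes carried 217 exonic peaks (143 to 316) from 27 peaks, and their introns 74.3 per Mb. The splicing factor genes carried 135 (82.2 to 208) from 20 peaks, and their introns 56.5 per Mb. In both lists a high level in exons thus went with a high level in introns of the same genes. Other lists differed from this and from each other. Translation factor genes had 41.6 exonic and 6.18 intronic peaks per Mb, and actin, tubulin and actin-binding genes 10.1 and 21.3. In the narrower reading 6 of 79 ribosomal protein genes (7.59%, 3.53 to 15.6) and 6 of 39 splicing factor genes (15.4%, 7.25 to 29.7) held an exonic peak, beside 0.774% of all protein-coding genes. The densities were then 131 (56.6 to 258) and 134 (57.8 to 264) exonic peaks per Mb, with introns at 34.3 and 45.1.

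Within the ribosomal protein genes the highest values were 7.61 in RPL27A and 6.92 in RPS3, and the lowest was 3.26 in RPS13. Within the splicing factors they were 10.5 in HNRNPC and 8.89 in HNRNPA2B1, with SRSF3, an SR protein, at 4.49. Of 319 exonic summits, 8 (2.51%) had a small RNA gene no more than 500 bp away. Of these, 7 were near snoRNA genes, among them those hosted by RPSA, RABGGTB, RPL21, RPL5, RPL4 and RPS13, and 1 near the miRNA gene MIR4530 at ZFP36. The share was not taken for other peaks, so it cannot be read as high or low.

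The other 9 lists had lower shares. Under the narrower reading they ran from 0 of 18 glycolysis genes to 4 of 40 immediate early and stress response genes (10%), which is above the share of ribosomal protein genes. The counts that follow are for all 319 peaks. Translation factors had 5 of 42 (11.9%, 5.19 to 25), led by EIF1 and EEF1A1, and glycolysis genes 2 of 18 (11.1%), ENO1 (enolase 1) at 4.68 and PGAM1 (phosphoglycerate mutase 1) at 3.40. Immediate early and stress response genes had 4 of 40 (10%, 3.96 to 23.1), led by KLF6 and MCL1, an anti-apoptotic BCL2 relative, at 5.89. WNT target and intestinal regulator genes had 3 of 35 (8.57%), among them KLF5, a factor of the intestinal epithelium, at 5.49 and CCND1, cyclin D1, at 5.32. The CCND1 summit also lay in LTO1 on the other strand.

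Keratin, junction and laminin genes had 4 of 49 (8.16%), led by KRT80 at 4.86 and KRT7 at 3.66. Actin, tubulin and actin-binding genes had 3 of 37 (8.11%), led by DST at 5.0 and SPTBN1, a spectrin chain, at 2.96. Heat shock and chaperone genes had 3 of 39 (7.69%) with 8 peaks, led by HSP90AA1 and HSPA5. RNAPII and elongation genes had 3 of 55 (5.45%, 1.87 to 14.9), led by HEXIM1, an inhibitor of the elongation kinase P-TEFb, at 5.99 and CDK12, a kinase of the RNAPII tail, at 5.46. Cholesterol and fatty acid synthesis genes had 1 of 24 (4.17%, 0.739 to 20.2). All 457 listed genes together hosted 84 of the 319 peaks (26.3%) in 59 genes.

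**Figure D5:**
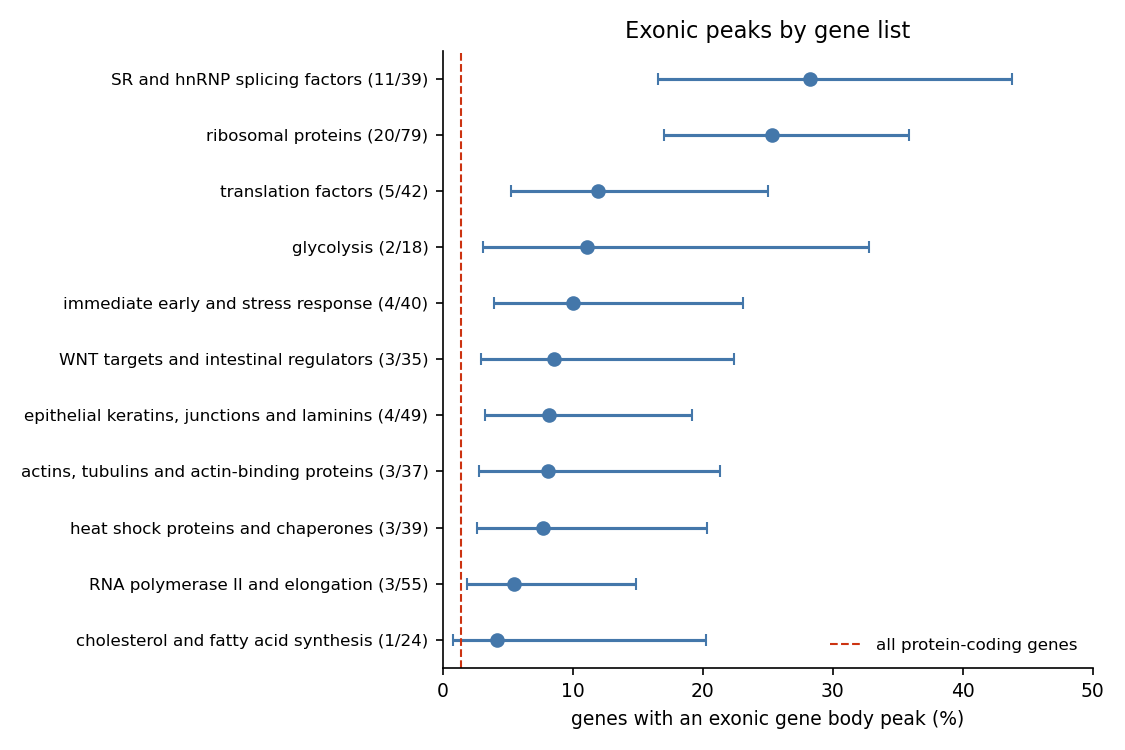
Share of genes (%) with an exonic gene body peak in 11 gene lists, with Wilson 95% intervals and the number of genes in parentheses. The dashed line is the share of all protein-coding genes, 1.37%. Splicing factor (28.2%) and ribosomal protein genes (25.3%) lie highest, and the interval of the cholesterol list reaches below the line.

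Few exonic peaks were overlapped by a peak of the mouse antibody list. At an overlap of at least 1 bp, 18 of 319 did (5.64%, 3.60 to 8.74), beside 8.33% of all goat antibody peaks. The share was 8.36% in first introns, 6.54% in later introns and 9.79% near TSSs. The difference from TSS peaks was -4.15 points (-6.63 to -0.809), but in the narrower reading, with 7.74% of exonic peaks, it was -2.05 (-5.51 to 3.15). The share did not differ beyond counting error from first introns, with -2.71 points (-5.45 to 0.736), or from later introns, with -0.899 points (-3.21 to 2.34). By quartile of fold enrichment, from the lowest to the highest, 0 of 53, 8 of 78, 4 of 91 and 6 of 97 exonic peaks overlapped. The shares were 0, 10.3, 4.40 and 6.19%, against 10.8, 6.16, 8.37 and 7.63% of first intron peaks, and followed no order.

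The overlapping peaks included 6 of the 20 highest, all of them wide, at 1622 to 7135 bp. These lay in EIF1, HNRNPC, EEF1A1, RPL27A and, with both of its peaks, HNRNPA2B1. An overlapping mouse antibody peak had fold enrichments of 4.70, 4.59, 6.79, 4.21, 6.25 and 4.39 in that order. Such a peak can lie anywhere under the wide goat antibody peak, so these values need not be at the exonic summit. In EIF1 the mouse antibody peak over the summit had 4.06, and in RPL27A the peak with 4.21 did not reach the summit. Among the others were AXIN2, the scaffold that restrains β-catenin, at 3.68 in the goat and 5.0 in the mouse antibody list, LGR6, a receptor for R-spondins, at 3.70 and 3.57, and RPL21 at 4.58 and 4.66. By part, 6 of 70 coding summits overlapped (8.57%), 6 of 115 in 3′ UTRs (5.22%) and 5 of 127 in exons without a defined coding role (3.94%), with intervals that overlap.

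Classified by the same rule, 66 of 2338 mouse antibody peaks (2.82%) were exonic gene body peaks. Their density was 0.929 per Mb, against 0.666 in introns, a ratio of 1.39 (1.07 to 1.79), and 1.28 (0.914 to 1.76) on 41 peaks in the narrower reading. As in the goat antibody list, coding sequence was lowest, at 0.533 per Mb (0.284 to 0.912). The 3′ UTRs were at 0.948 (0.607 to 1.41) and exons without a defined coding role at 1.23 (0.799 to 1.82). These intervals overlap, so the order is not beyond counting error, and the parts were not split in the narrower reading. They lay in 63 host genes, of which 21 also held an exonic goat antibody peak, which is 33.3% of these and 7.61% of the 276 goat antibody host genes.

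The ChIP-seq list of 186 peaks was too short to say much of exons. It overlapped 1 exonic peak (0.313%), beside 0.837% of the goat antibody list, and this was the peak in LRRC75A, with a ChIP-seq fold enrichment of 4.99. No exonic peak overlapped a peak of both other lists. By the same rule 5 ChIP-seq peaks were exonic, in C1orf159, SLC66A2, LRRC75A, DDIT4 (a stress-induced inhibitor of mTORC1) and CCN1 (a matricellular signalling protein), and the 4 other genes held no exonic goat antibody peak.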

How the data were processed

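The 3 lists of peaks of DLD1 cells in the series were used. Per the study's methods, the authors placed read pairs on hg19 by Bowtie2, dropped PCR duplicates by Picard and called peaks by MACS2 at default settings against goat IgG (CUT&RUN) or input (ChIP-seq). The methods name goat IgG as the control for CUT&RUN and no mouse IgG, and the labels list a mouse IgG library, so which of them served the mouse antibody list was not settled here. How the 2 goat antibody libraries were joined into 1 list is not given in the sources used here. In the deposited lists, the authors' fold enrichment is a linear ratio of signal to control at the summit, the deposited p-values and q-values are given as −log10, and the deposited score is a display value that was not used. Duplicate removal and a single control library per list affect the height of every peak, and a list names no region below the caller's threshold.

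Peaks were placed on GRCh37 with GENCODE release 44 by their summits. Each base of a coding gene was put in 1 part, with coding sequence before UTRs, other exons and introns. Densities were peaks per Mb with exact Poisson intervals, ratios had exact conditional intervals, shares Wilson intervals, differences of shares Newcombe intervals and medians order-statistic intervals, all at 95% and covering counting error only. A list's peaks are no replicates of a condition, so no test was run and no p-value is given. Genome copies were counted for the 32 bp at the summit on both strands. Python 3, numpy and scipy were used, and the placement, intervals and overlaps were tested on simulated data.

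Members and gene lists were chosen with earlier results of these data known. The starts and ends that exclude a peak were first taken from all transcripts of coding and lncRNA genes. They were then limited to transcripts of those types, as the nearer reading of the rule, after values under the first reading had been seen. Genes were named by rule, namely the hosts of the 20 highest peaks, peaks in another list, the genes with the most peaks (8 with 3 or more, since 5 could not be cut from ties) and the 2 highest hosts in each gene list. AXIN2 met the rule for printed sequences and was left out because its window meets a UTR. Other samples of the series had no file used here. Peak lists give no expression level, so the identity of the cells was not checked. A few genes that met the naming rule are not reported here.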

Additional observations from a re-analysis of the deposited data

How the results depend on the processing

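No paired analysis was possible because the lists hold no value per replicate, and for the same reason no library could be left out. The exonic density stayed above the intronic density under all 8 alternatives, with ratios of 1.19 to 2.02. The number of exonic peaks, 319, fell to 119 at a fold enrichment of at least 5, 186 with exons of basic protein-coding transcripts, 207 with TSSs of all genes excluded and 168 with starts and ends of every transcript of coding and lncRNA genes excluded. That last reading came first, and the set of 319 was chosen after seeing the data under it. In that order the density ratio of 1.51 became 2.02, 1.24, 1.28 and 1.19. The median fold enrichment of 4.57 became 4.91 at q-values under 0.001 and 5.73 at a fold enrichment of at least 5, since low peaks were removed. The share with a TSS peak in the gene, 35.1%, became 25.9% at q-values under 0.001 and 19.3% at a fold enrichment of at least 5, where TSS peaks had to pass the same limit, 26.6% with TSSs of all genes excluded and 20.8% with starts and ends of every transcript excluded. The share in coding sequence, 21.9%, became 36.0% with exons of basic transcripts, a set with fewer noncoding exons. The ChIP-seq overlap became 0 beyond 2 kb from a TSS. The mouse antibody overlap stayed at 5.33 to 7.74% under its 10 alternatives, and the median GC content at 41.5 to 42.5% under its 9.

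Peaks below the caller's threshold are not in the lists and the read depth is unknown, so the absence of a peak from an exon is not a measurement of it. The interval of each density covers counting error only. Peaks that are wide or cover several exons were counted once, at the summit.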
